A study of Mus musculus with 4 samples.

Results

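Among the leptin receptor (LepR) stromal cells of mouse femoral bone marrow, 2751 cells carried a high level of Col8a1, of 18543 cells that passed the filters in the whole series. A cell belonged to the Col8a1-high LepR stroma when it held at least 20 Cxcl12 UMIs per 10000 gene UMIs, at least 1 Lepr UMI and at least 5 Col8a1 UMIs per 10000, with under 2 Acta2 UMIs, no Cdh5 UMI and under 20 Col2a1 UMIs per 10000. A UMI is a molecular tag that counts each captured RNA once. The same gate without the Col8a1 threshold held 7159 cells, so that 4408 other gated LepR cells served for comparison. Members numbered 371 (Ctrl), 590 (Sham_D40), 787 (Graft_D19) and 1003 (Graft_D40). These cells were chosen by their measured levels of the 6 gate genes, so what separates them from the other gated LepR cells within a library is given as a description.

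LepR stromal cells, also called Cxcl12-abundant reticular cells, are perivascular cells that hold haematopoietic stem cells and lymphoid progenitors in the marrow through Cxcl12, the chemokine that retains them, and Kitl, the ligand of the Kit receptor. They express adipocyte genes such as Adipoq, the hormone adiponectin, and can give rise to bone and fat. Col8a1 encodes a chain of type VIII collagen, a short network-forming collagen of vessel walls and other matrices, which is made by activated fibroblasts in several tissues.

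All 4 groups were C57BL/6 mice of the Rag2-/-gammac-/- genotype, which lack lymphocytes of their own and so accept human cells. Ctrl mice were left at steady state, Sham_D40 mice had a PBS injection and were taken at day 40, and Graft_D19 and Graft_D40 mice were grafted with DOHH2 cells, a line derived from a human follicular lymphoma, and were taken at day 19 and day 40. Femurs were digested, and stroma sorted as Cd51 and Cd200 positive was profiled together with Sca1 positive endothelium by 10x Genomics 3′ single-cell RNA sequencing. Each group was 1 library and the number of animals in it is not given in the labels. Without replicates no difference was tested, and animal, day of preparation and library cannot be told apart from the group. Every interval below is a 95% interval that covers counting error only.

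Members had median depths of 3452 (Ctrl), 9182 (Sham_D40), 7716 (Graft_D19) and 8024 (Graft_D40) UMIs per cell, against 3859, 8673, 7080.5 and 7217 in the other gated cells of the same libraries. Ctrl was thus the shallow library, with 1387205 UMIs over all its members, while the members of Sham_D40 held 5542822, those of Graft_D19 6636257 and those of Graft_D40 8577365. Doublet calling marked 1, 0, 1 and 3 members in that order of libraries. Between 11 and 15 barcodes were shared by any pair of libraries, and 1 of them was a member, in Graft_D19 and Graft_D40. Summed over 7 measured endothelial markers, members held 72.1, 35.5, 33.6 and 36.5 UMIs per 1000000 UMIs of the class (CPM) in the same order, against 6254 to 6976 in the endothelial cells. The 5 Schwann cell markers summed to 4.07 to 8.65 CPM, with 2 or 3 of the 5 at 0. Haematopoietic markers were near 0 except through single cells, of which 1 in Ctrl held 1301 of 1339 such UMIs among members and 1 in Graft_D19 held 3703 of 3787.

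Col8a1-high cells made up 20.8% of the gated LepR cells in Ctrl (18.9 to 22.7, Clopper-Pearson), 27.9% in Sham_D40 (26.0 to 29.9), 41.2% in Graft_D19 (39.0 to 43.5) and 74.3% in Graft_D40 (71.9 to 76.6). The intervals of the 4 libraries did not overlap, and both grafts stood above both ungrafted libraries. Their share of all cells that passed the filters followed the same order, at 8.94%, 12.9%, 16.1% and 20.4%, whereas the gated LepR cells as a whole were 46.3% of the Sham_D40 cells and 27.4% of the Graft_D40 cells. Shares of all cells also depend on the balance of stroma and endothelium after sorting. The endothelial class counted 1205 among the 4570 passing cells of the day 40 sham. In the day 40 graft it counted 1270 among 4920. Why gated LepR cells were a smaller part of Graft_D40 was not tested. When cells of 2000 or more UMIs were thinned to 2000, to put the libraries at one depth, the shares were 30.8%, 39.4%, 52.2% and 77.8%. This left out 1090, 153, 342 and 246 passing cells of lower depth. At that depth any Col8a1 UMI met the threshold, so thinned members were cells with Col8a1 detected. At a threshold of 10 Col8a1 UMIs per 10000 they were 6.67%, 9.50%, 19.2% and 53.3%, in the same order.

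**Figure D1:**
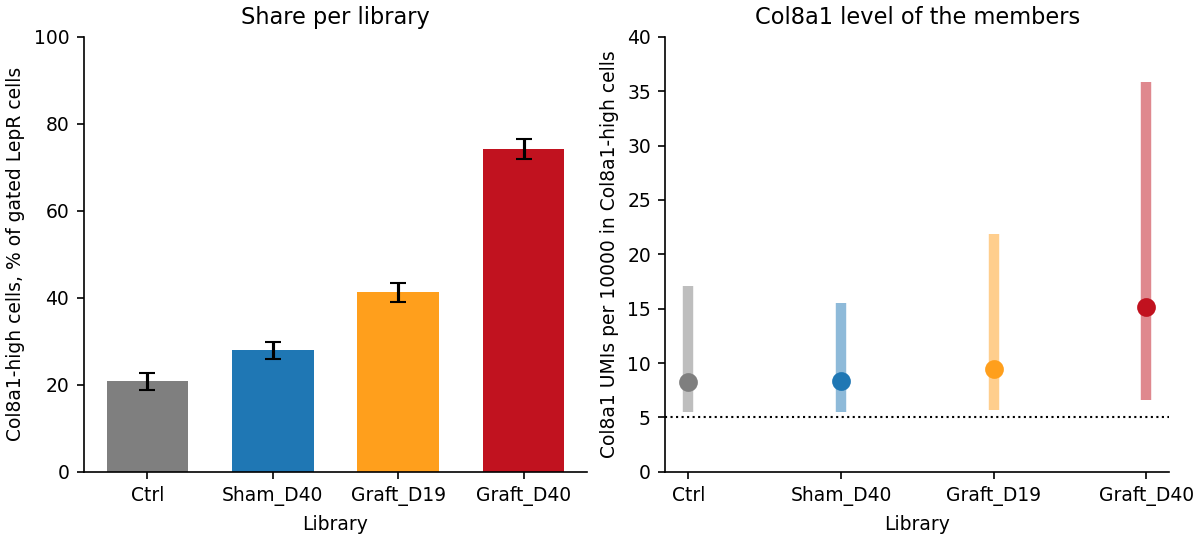
The left panel plots the share of Col8a1-high cells among gated LepR cells in each library, with bars from 0 and 95% Clopper-Pearson intervals, and the right panel plots Col8a1 UMIs per 10000 in those cells, with points at the median, bands from the 10th to the 90th percentile and a dotted line at the threshold of 5. The share was 20.8% in Ctrl and 74.3% in Graft_D40, and the median Col8a1 level was highest in Graft_D40, at 15.2.

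The members also held more Col8a1 per cell in the day 40 graft. Their median was 8.24 (Ctrl), 8.38 (Sham_D40), 9.45 (Graft_D19) and 15.2 (Graft_D40) Col8a1 UMIs per 10000. The rule holds every member at 5 or more, so these medians lie above 5 by design. Over all gated LepR cells the median was 0 (Ctrl), 2.19 (Sham_D40), 3.68 (Graft_D19) and 11.0 (Graft_D40) per 10000. Members that rested on 1 Col8a1 UMI numbered 45 in Ctrl and 8 to 14 in the other libraries. Just inside the threshold, from 5 to under 6 per 10000, lay 68, 115, 110 and 55 cells of the 4 libraries, and just outside it, from 4 to under 5, lay 80, 130, 120 and 43. Adipoq across that edge measured 3282, 2984, 1698 and 1382 CPM just inside and 3331, 2748, 2176 and 1224 CPM just outside, so that neither side was above in all 4 libraries. Summed over endothelial cells, Col8a1 was at 20.5, 39.8, 43.0 and 106 CPM, against 98.9, 145, 172 and 182 CPM in the other gated LepR cells. Whether endothelial cells make this RNA themselves was not tested.

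Col8a1 lies on chromosome 16 at 57624258 to 57754737 on the minus strand (GENCODE vM21, mouse build mm10). Tnfsf11, the osteoclast differentiation factor RANKL, was the marker named with these cells that stood above the other gated LepR cells by the call rule in all 4 libraries. The 250 bases before the start of the threshold gene Col8a1 and of Tnfsf11 are shown. They were taken from RefSeq promoters of build GRCm38.p6, read 5′ to 3′ on the minus strand, at chr16:57754738-57754987 for Col8a1 and chr14:78308044-78308293 for Tnfsf11. Capitals mark exact matches on either strand to 5 motifs: the TATA box TATAAA, RBPJ GTGGGAA, AP-1 TGANTCA, RUNX TGTGGT and the GC box GGGCGG.
Col8a1: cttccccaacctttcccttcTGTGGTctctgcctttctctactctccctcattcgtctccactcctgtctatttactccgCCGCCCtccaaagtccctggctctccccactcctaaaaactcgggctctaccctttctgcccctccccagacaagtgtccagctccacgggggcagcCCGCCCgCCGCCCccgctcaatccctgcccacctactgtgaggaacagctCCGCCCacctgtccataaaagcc
Tnfsf11: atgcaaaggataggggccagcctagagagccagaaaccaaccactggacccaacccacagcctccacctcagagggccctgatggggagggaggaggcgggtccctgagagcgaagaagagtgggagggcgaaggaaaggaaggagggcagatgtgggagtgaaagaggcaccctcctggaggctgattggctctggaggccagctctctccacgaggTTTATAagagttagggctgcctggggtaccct
The Col8a1 window held 1 RUNX match, at 230 to 225 bases before the start, and 4 GC boxes, and the Tnfsf11 window held 1 TATA box at 32 to 27 bases before the start. Of 32851 mouse promoter windows of this length, 14.0% held the RUNX letters, 32.7% a GC box, 12.4% a TATA box, 6.75% AP-1 and 5.42% RBPJ. The E-box CANNTG, which stood in 66.2% of the windows, was found at 2 places in Col8a1 and 1 in Tnfsf11 and is not in capitals. Of the 6 marker genes, 4 matched the promoter table. In the Fbn1 window the RBPJ letters stood 20 to 14 bases before the start. These are letter matches, not sites of binding.

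The label of the population was checked against its 5 markers other than Col8a1. Calls required a ratio of at least 1.5-fold either way whose interval left out 1, among 10584 genes with a mean of at least 5 CPM, where CPM sums the UMIs of a gene over a class of cells and scales them to the UMIs of that class. Tnfsf11 measured 50.5 (Ctrl), 71.3 (Sham_D40), 99.6 (Graft_D19) and 144 (Graft_D40) CPM in members and 22.8, 36.4, 61.8 and 80.4 CPM in the other gated cells, which gave folds of 2.21-fold (1.63 to 2.98), 1.96-fold (1.71 to 2.23), 1.61-fold (1.44 to 1.81) and 1.79-fold (1.55 to 2.08). Members were thus above the other gated cells in every library, and both classes were highest in Graft_D40. Endothelial cells of the same libraries held 0.994, 1.62, 4.29 and 3.17 CPM of it.

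Ltbp2, a latent TGF-beta binding protein of elastic fibres, measured 221, 409, 402 and 658 CPM in members against 134, 271, 272 and 505 CPM in the others. Fbn1, the fibrillin of microfibrils, measured 528, 796, 1114 and 1372 against 391, 668, 762 and 729.9 CPM. Both lay above the other gated cells in all 4 libraries, and Fbn1 passed 1.5-fold in Graft_D40 alone, at 1.88-fold (1.79 to 1.97), while Ltbp2 passed it in Ctrl and Sham_D40. Heyl, a transcriptional repressor that Notch signalling induces, measured 20.2, 23.1, 126 and 183 CPM against 13.5, 29.5, 63.5 and 109 CPM. It was higher in members of both grafts, at 1.98-fold (1.77 to 2.21) and 1.67-fold (1.48 to 1.90), and was 0.784 times (0.638 to 0.958) the level of the other cells in Sham_D40. Ccn5, a matricellular protein, went against the label, at 314, 249, 453 and 705 CPM in members and 509, 391, 503 and 799.5 CPM in the others. It was lower in members in each library, and the difference passed 1.5-fold in Ctrl and Sham_D40.

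**Figure D2:**
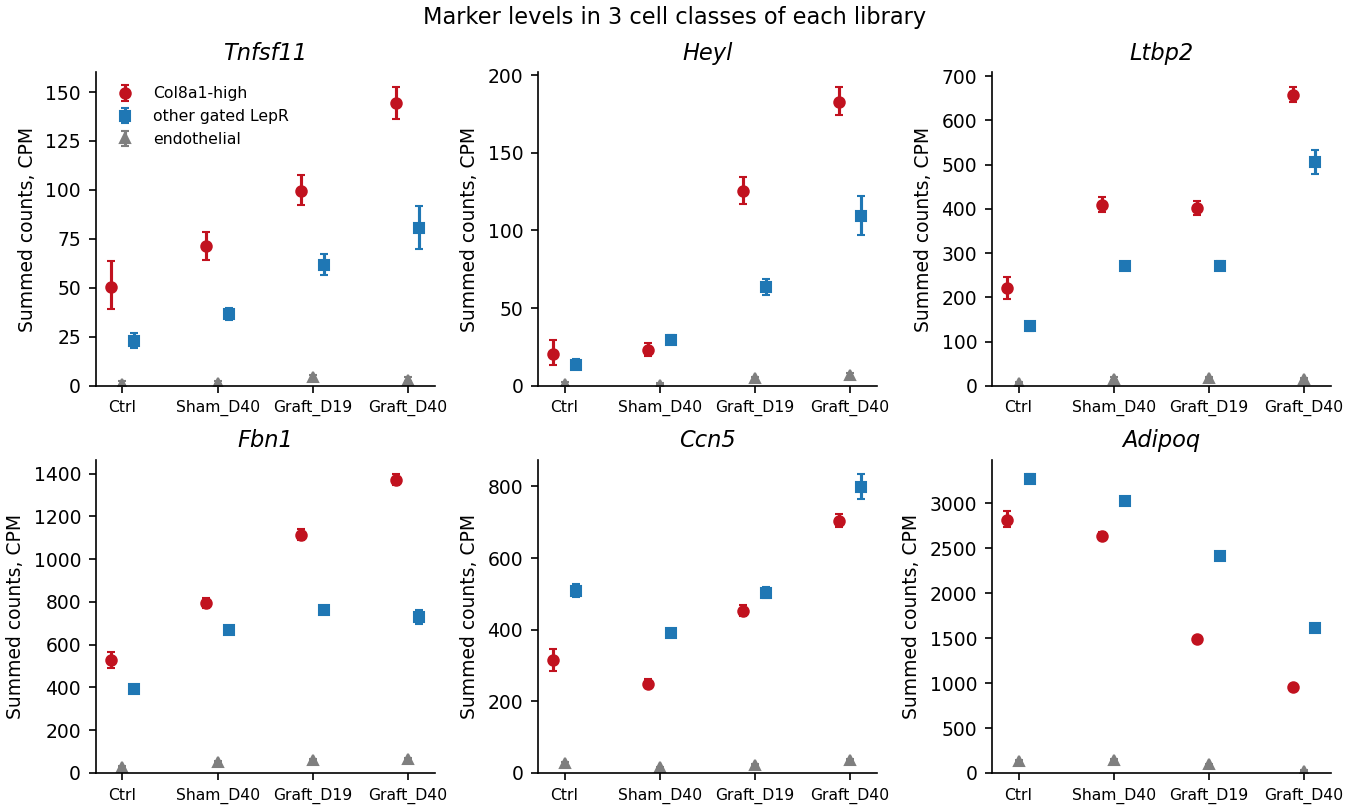
Summed counts in CPM of 5 marker genes and of Adipoq are plotted for each library (horizontal axis) in Col8a1-high cells (circles), other gated LepR cells (squares) and endothelial cells (triangles), with 95% Poisson intervals. Tnfsf11, Ltbp2 and Fbn1 lie above the other gated cells in every library, Heyl in Ctrl and the 2 grafts, and Ccn5 and Adipoq lie below them in all 4.

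The working name of these cells also holds the word matrix. Of 124 measured matrix genes, 18 were higher and 10 lower in members than in the other gated cells of Ctrl, where 4.52% and 1.97% of all genes were. The counts were 12 higher and 16 lower in Sham_D40 (all genes 1.82% and 2.37%), 17 and 14 in Graft_D19 (2.11% and 1.94%) and 27 and 12 in Graft_D40 (3.24% and 3.04%). Matrix genes were called in both directions, with medians of 0.15, 0.01, 0.12 and 0.27 on the log2 scale. Col1a1, a chain of the main collagen of bone, was lower in members outside Ctrl, at 211, 258, 654 and 1336 CPM against 161, 754, 2125 and 4848 CPM. The comparator was not even along Col8a1 in cells of 2000 or more UMIs, where those without a Col8a1 UMI held 161, 293, 2589.8 and 485 CPM and those with some but under 5 per 10000 152, 1073, 1846 and 6944 CPM. At day 40, sham and graft, the high level thus lay in the second of these bins, and in Graft_D40 cells without Col8a1 were below the members. The rule used these same cells, so the shares are printed for reference and nothing is read from them.

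Across all genes, 35 were higher in members in each of the 4 libraries (0.331% of 10584) and 24 were lower (0.227%). The difference that was largest in its smallest library was that of Cxcl13, the chemokine that draws B cells, at 64.2 (Ctrl), 26.9 (Sham_D40), 53.6 (Graft_D19) and 292 (Graft_D40) CPM in members and 13.0, 2.74, 5.54 and 12.2 CPM in the other gated cells. Members were above in all 4 libraries, with the smallest log2 ratio 2.22 in Ctrl, and Graft_D40 was the highest. This RNA came from a few cells, since the 10 members with most of it held 91.0%, 63.1%, 83.4% and 59.7% of it. Fndc1, a fibronectin type III domain protein, measured 36.0, 40.1, 41.9 and 139 CPM in members and 12.3, 17.3, 16.6 and 33.7 in the others. Ccn4, a matricellular protein and Wnt target, measured 20.9, 17.9, 47.8 and 95.1 and 5.09, 8.36, 21.5 and 25.9. For both, members exceeded the others in each library, and Graft_D40 was again the highest. Lama1, a laminin chain of basement membranes, was the remaining matrix gene of the 3 called in all 4 libraries, at 10.8, 17.5, 19.1 and 29.0 CPM in members.

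The other 9 named genes that were higher in members were the netrin receptor Unc5b, the sphingosine-1-phosphate receptor S1pr1, the potassium channel Kcnk2, the guanylate cyclase subunit Gucy1a1, the synaptotagmin Syt6, the syndecan Sdc3, the Wnt inhibitors Nkd2 and Trabd2b, and the olfactomedin-family protein Olfml2b. Kcnk2 measured 204, 177, 184 and 139 CPM in members and 66.8, 64.5, 109 and 65.9 CPM in the others. S1pr1 measured 229, 193, 259 and 215 CPM against 133, 99.6, 155 and 119.7. Neither gene passed the call between the day 40 libraries in members, and Kcnk2 was lowest in Graft_D40. Sfrp1, a secreted Wnt antagonist, was also higher in members in all 4 libraries, at 185, 281, 219 and 216 against 107, 134, 136 and 114 CPM, as were the Notch target Hey1, at 23.1, 28.9, 40.7 and 44.9 against 9.49, 14.4, 20.4 and 18.2 CPM, and Smad6, an inhibitor of BMP signalling, at 44.0, 54.3, 73.4 and 71.2 against 19.5, 30.3, 45.5 and 39.3 CPM.

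Genes lower in members in all 4 libraries included Slc1a3, a glutamate transporter, at 19.5, 15.7, 15.5 and 10.6 CPM against 50.6, 59.4, 36.0 and 60.8 CPM in the other gated cells. Apod, a lipid-binding lipocalin, measured 92.3, 93.8, 46.3 and 46.2 against 235, 233, 131 and 94.8 CPM, and Serpina3n, a secreted protease inhibitor, 242, 136, 74.7 and 40.9 against 384, 330.3, 187 and 219 CPM. As a ratio, Serpina3n was furthest below the other cells in Graft_D40. The named genes that were lower also held Fabp4, a fatty acid carrier, Scd1, a fatty acid desaturase, Adcyap1r1, the receptor of the peptide PACAP, the chemokine Ccl9, Cbln1, Prg4 (lubricin), Phex, a protease of phosphate balance, Deptor and Lbh. Deptor missed the call in Sham_D40 and Lbh in Ctrl. Fabp4 is abundant in endothelium, at 16410.1, 9134, 6160.1 and 4986 CPM there, and it measured 215, 82.1, 45.5 and 41.4 CPM in members. The part of endothelial RNA in that level was not tested.

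Within the gated LepR cells, RNA levels were followed along the Col8a1 level of the cell, in cells of 2000 or more UMIs. Comparing cells without a Col8a1 UMI with those at 10 to under 20 per 10000, Adipoq went from 3391 to 2407 in Ctrl, from 3212 to 2537 in Sham_D40, from 2784 to 1466 in Graft_D19 and from 2130.1 to 1068 in Graft_D40 CPM. It was lower at the higher Col8a1 level in each library. Fbn1 went from 370.0 to 579.7 in Ctrl, from 593 to 864 in Sham_D40, from 726 to 1133 in Graft_D19 and from 579.6 to 1336 in Graft_D40 CPM. Tnfsf11 went from 17.9 to 66.0 in Ctrl, from 25.4 to 90.6 in Sham_D40, from 43.6 to 108 in Graft_D19 and from 42.2 to 162 in Graft_D40 CPM. Both were higher at the higher Col8a1 level in each library, ungrafted and grafted alike. The bins cut across the rule of the population, so these values too are a description.

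Other genes followed Col8a1 to unlike extents in the 4 libraries. Tnc, the matricellular protein tenascin-C, went from 1179.7 to 2943 in Ctrl, from 1407 to 3772 in Sham_D40, from 1702 to 2876 in Graft_D19 and from 1114 to 1866 in Graft_D40 CPM. Wif1, a Wnt inhibitor of bone-forming cells, went from 106 to 488 in Ctrl, from 112 to 487 in Sham_D40, from 203 to 381 in Graft_D19 and from 185 to 223 in Graft_D40 CPM. Alpl, the alkaline phosphatase of mineralising cells, went from 29.3 to 275 in Ctrl, from 65.5 to 286 in Sham_D40, from 113 to 275 in Graft_D19 and from 73.8 to 149.9 in Graft_D40 CPM. The difference between these bins was thus wide in the ungrafted libraries for the 3 genes and least, in CPM, in Graft_D40. In the bin of 20 or more per 10000, which held 355 cells of Graft_D40, Tnc, Wif1 and Alpl measured 1552, 182 and 240 CPM in that library. Kitl showed the other pattern, going from 2083 to 2029 in Ctrl, from 2707 to 2447 in Sham_D40, from 2156 to 1452 in Graft_D19 and from 1677 to 1126 in Graft_D40 CPM, a wider gap in the grafts than in the ungrafted libraries. Heyl went from 13.2 to 25.7 in Ctrl, from 69.3 to 122 in Graft_D19 and from 90.2 to 168 in Graft_D40 CPM, higher with Col8a1 in these 3 libraries, and lay between 22.2 and 33.8 CPM over the 5 bins of Sham_D40. The difference between libraries in these slopes was not tested.

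**Figure D3:**
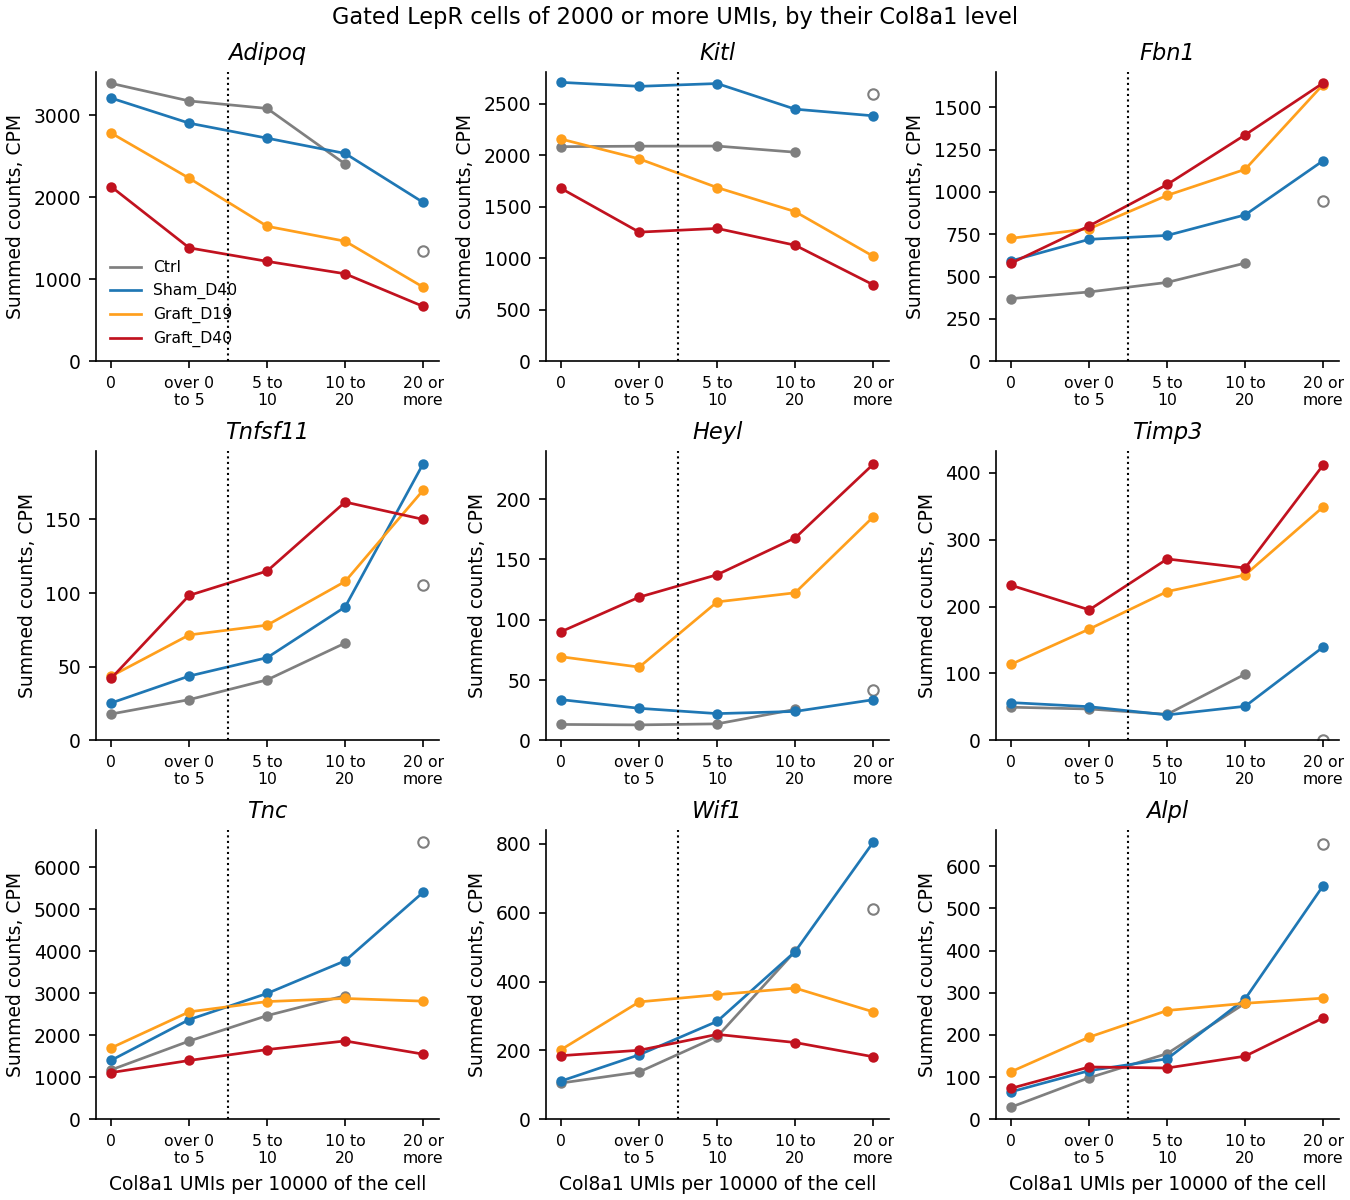
Summed counts in CPM of 9 genes are plotted against the Col8a1 level of the cell, in 5 bins, for gated LepR cells of 2000 or more UMIs, with 1 line per library and a dotted line at the threshold of the population. The open circle is the bin of 16 Ctrl cells. From 0 to the bin of 10 to under 20, Adipoq was lower and Fbn1 and Tnfsf11 were higher in all 4 libraries, while the gaps of Tnc, Wif1 and Alpl were widest, in CPM, in Ctrl and Sham_D40. Heyl was higher in Ctrl and the grafts and lower in Sham_D40.

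Genes of bone formation were counted next. In members over the other gated cells, 10 of 22 measured osteogenic genes were higher and 1 lower in Ctrl, 6 and 6 in Sham_D40, 3 and 6 in Graft_D19 and 3 and 9 in Graft_D40. Over all genes the shares were 4.52% and 1.97%, 1.82% and 2.37%, 2.11% and 1.94%, and 3.24% and 3.04%, and nothing is read from these counts either, as the rule used the same cells. Sp7, the osteoblast transcription factor osterix, measured 55.5, 69.8, 76.9 and 54.3 CPM in members and 27.4, 38.0, 54.9 and 51.5 CPM in the others. Mmp13, the collagenase of bone and cartilage, measured 755, 920.3, 938 and 527 CPM and 267, 644, 950.4 and 1038 CPM. Sp7 was higher in members of Ctrl and Sham_D40, and Mmp13 was higher in members of Ctrl and lower in those of Graft_D40. Bglap, the osteocalcin of late osteoblasts, measured 79.3, 37.5, 47.6 and 167 CPM in members against 46.0, 90.5, 311 and 256 CPM. It was higher in members of Ctrl and lower in those of the other 3 libraries, and 1 member of Graft_D40 held 867 of its 1436 Bglap UMIs. Among the other gated cells, those without a Col8a1 UMI held 41.4, 42.1, 37.9 and 96.0 CPM of it and those under 5 per 10000 52.8, 124, 456 and 330.4 CPM.

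The graft was then compared with the ungrafted libraries inside the members, first Graft_D40 with the sham of the same day. In that comparison 6.84% of 10569 genes were called higher and 4.42% lower, with a median log2 ratio of 0.06 over all genes. Sham_D40 and Ctrl, both ungrafted, differed from each other in members by 16.0% higher and 9.32% lower, with Ctrl the shallow library. Erythroid RNA, which can float free in a marrow suspension, went with the groups, at 641, 218, 38.7 and 10.1 CPM over 7 genes in members of Ctrl, Sham_D40, Graft_D19 and Graft_D40. Its part in the results below was not tested.

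Several niche factors were lower in members of Graft_D40. Of 16 measured, 7 were lower and 1 higher, with a median log2 ratio of -0.53. Kitl measured 2099.9 (Ctrl), 2608 (Sham_D40), 1524 (Graft_D19) and 1022 (Graft_D40) CPM and was 0.392 times (0.382 to 0.402) its sham level at day 40. Bmp4, a bone morphogenetic protein, measured 381, 547, 386 and 147 CPM in the same order, with 0.268 times (0.251 to 0.287) the sham level. Graft_D40 was the lowest library for both, and Graft_D19 lay close to Ctrl for Bmp4. Cxcl12, which the gate requires, measured 29480.1, 32009.7, 25337 and 20868 CPM. Vcam1, an adhesion molecule for blood progenitors, measured 1747, 2269, 1458 and 1251 CPM and Angpt1, the ligand of the Tie2 receptor, 272, 338, 227 and 156 CPM. Il7 and Cxcl14 did not pass the call, with 135, 176, 157 and 158 CPM and 3600.0, 3188, 3673 and 3939.9 CPM. In the other gated cells 8 of 16 were lower and 1 higher, where 3.47% and 5.44% of all genes were, and Kitl measured 2094, 2681, 2026 and 1387 CPM.

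Of 16 measured adipogenic genes 8 were lower in members of Graft_D40 than of Sham_D40 and 0 higher, with a median log2 ratio of -0.60. In the other gated cells 4 of 17 were lower and 1 higher, with a median of -0.30. In members Adipoq measured 2820.1 (Ctrl), 2635 (Sham_D40), 1489 (Graft_D19) and 954 (Graft_D40) CPM, 0.362 times (0.352 to 0.372) the sham level at day 40. Lpl, lipoprotein lipase, measured 2989, 4952, 2527 and 1396 CPM, 0.282 times (0.276 to 0.288) the sham level. Both were lowest in Graft_D40 and next lowest in Graft_D19. The transcription factors Pparg, at 64.9, 70.9, 61.2 and 53.9 CPM, and Cebpa, at 172, 255, 236 and 220.1 CPM, did not pass the call. Lepr, a gene of the gate, measured 1638, 1819, 2139.6 and 2061 CPM. The rule requires a Lepr UMI in every member, so nothing is read from this level.

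Of the BMP antagonists, Grem1, gremlin, measured 367, 468, 247 and 142 CPM in members and Chrdl1, a chordin-like protein, 859, 1167, 642 and 491 CPM. Both were lowest in Graft_D40, at 0.303 times (0.283 to 0.324) and 0.420 times (0.404 to 0.437) the sham level. Fst, follistatin, did not pass the call, at 734, 989.9, 711 and 785 CPM. Over the BMP list 7 of 16 genes were lower and 1 higher in members, and 4 of 15 were lower and 2 higher in the other gated cells.

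Matrix genes were called more often higher than lower. In members of Graft_D40 over Sham_D40, 46 of 121 measured matrix genes were higher and 9 lower, with a median log2 ratio of 0.38. In the other gated cells 32 of 126 were higher and 10 lower, with a median of 0.14. Markers of other skeletal cells moved beside them. Of 9 measured chondrocyte markers 7 were higher in members, with a summed level of 143, 284, 269 and 331 CPM in Ctrl, Sham_D40, Graft_D19 and Graft_D40 and 168, 715, 1177 and 721 CPM in endothelial cells. In members 3 of the 11 listed markers outside the gate were at 0 in Ctrl, 1 in Sham_D40 and 0 in the grafts. Of 6 fibroblast markers 5 were higher, with a summed level of 616, 556, 767 and 1141 CPM in members. The part of these cells in the matrix counts was not tested. Among the collagens of fibril surfaces and networks, 5 of 8 were higher. The chains of type VI collagen, which forms beaded filaments around cells, measured 262, 412, 794 and 998 CPM for Col6a1, 165, 258, 572 and 738 CPM for Col6a2 and 38.2, 54.3, 109 and 149.7 CPM for Col6a3. Each was lowest in Ctrl and highest in Graft_D40, with folds at day 40 of 2.42-fold (2.31 to 2.54), 2.86-fold (2.70 to 3.03) and 2.76-fold (2.43 to 3.14). Col6a5, another chain of the family, went down, from 402 CPM in Ctrl and 585 in Sham_D40 to 334 in Graft_D19 and 123 in Graft_D40.

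Of 7 fibrillar collagens 3 were higher in members of Graft_D40 and 0 lower, with a median log2 ratio of 0.45. In the other gated cells 4 were higher and 0 lower, with a median of 0.79, above that of the members. Col3a1 measured 59.1 (Ctrl), 143 (Sham_D40), 353 (Graft_D19) and 467 (Graft_D40) CPM, 3.28-fold (3.04 to 3.54) over the sham, with 28.6, 28.1, 82.7 and 162 CPM in endothelial cells. Col1a1 measured 211 (Ctrl), 258 (Sham_D40), 654 (Graft_D19) and 1336 (Graft_D40) CPM. It was highest in Graft_D40, and the endothelial cells of that library held 2390.5 CPM of it against 271 in Sham_D40. The part of RNA from other cells in the level of members was not tested. Col1a2 and the type V chain Col5a2 did not pass the call, at 1459.8, 2011, 2079.6 and 2757 CPM and 175, 271, 288 and 343 CPM.

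Matricellular proteins and the proteins that shape the matrix divided further. Ccn4, Ccn5, Ccn2 and Ccn1 of the CCN family were all higher, with Ccn2, connective tissue growth factor, at 596, 539, 787 and 1316 CPM and Ccn5 at 314, 249, 453 and 705 CPM. Ccn1 measured 101, 139, 311 and 314 CPM. The 4 genes were highest in Graft_D40, and for Ccn1 Graft_D19 was as high within its interval. Tnc, abundant in all members, fell from 3323 CPM in Sham_D40 to 1687 in Graft_D40, 0.508 times (0.497 to 0.519) the sham level, with 2792 CPM in Ctrl and 2823 in Graft_D19. The crosslinking enzyme genes Lox, Loxl1 and Loxl2 did not pass the call, and their levels at day 40 were 422, 447 and 183 CPM in the graft and 347, 352 and 149 CPM in the sham.

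Metalloprotease inhibitors moved in opposite directions. Timp3 measured 60.6 (Ctrl), 45.8 (Sham_D40), 249 (Graft_D19) and 319.8 (Graft_D40) CPM, and Timp1 measured 128, 66.4, 178 and 298 CPM. Timp4 measured 124, 102, 46.1 and 26.5 CPM in the same order. Timp3 was high in both grafts, Timp1 was highest in Graft_D40, and Timp4 was lowest there, at 0.258 times (0.220 to 0.302) the sham level. Mmp2, a gelatinase, measured 18.7, 29.6, 68.6 and 147 CPM, 4.98-fold (4.23 to 5.90) over the sham, while Mmp13 was lowest in Graft_D40. Timp3 is also an endothelial gene, at 912, 1127, 907 and 836 CPM in the endothelial cells, where it did not rise with the graft.

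Heyl ranked highest by the rule used for naming genes, which took the smaller of the log2 ratios of Graft_D40 over the 2 ungrafted libraries. It measured 20.2 and 23.1 CPM in members of Ctrl and Sham_D40 and 183 in Graft_D40, 7.93-fold (6.62 to 9.57) over the sham, and a Heyl UMI was found in 5.39%, 16.3%, 45.1% and 62.4% of the members. Both grafts were above both ungrafted libraries, and endothelial cells held 0.994, 0.762, 4.65 and 6.74 CPM. The Notch receptor Notch3 measured 154, 192, 307 and 320.0 CPM and the ligand Jag1 55.5, 51.6, 77.8 and 86.2 CPM, whereas Hes1, another Notch target, measured 387, 226, 231 and 184 CPM and did not rise. Of 12 measured Notch pathway genes 4 were higher and 0 lower.

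The next named genes were Tagln, Csrp2, Ly6a, Aebp1, Cbfa2t3 and Ifi27l2a, besides Timp3, Col1a1 and Mmp2. Aebp1, a collagen-binding secreted protein, measured 64.9 (Ctrl), 57.4 (Sham_D40), 178 (Graft_D19) and 347 (Graft_D40) CPM. Tagln, an actin-binding protein of smooth muscle, measured 14.4, 2.71, 51.4 and 93.3 CPM and Csrp2, a LIM protein of smooth muscle, 18.0, 14.1, 58.3 and 109 CPM. All 3 were highest in Graft_D40. In Graft_D40 the endothelial cells held 98.5 CPM of Tagln, about as much as the members, 76.6 CPM of Csrp2 and 71.8 CPM of Aebp1. Cbfa2t3 measured 13.0, 12.1, 54.5 and 67.0 CPM in members and 73.7, 149.8, 133 and 167 CPM in endothelial cells. Over 17 contractile genes 9 were higher and 0 lower, Acta2 being kept low by the gate. Beside these, 9 pericyte markers outside the gate, Tagln and Notch3 among them, summed to 213, 295, 438 and 486 CPM in members and 186, 244, 285 and 303 CPM in the other gated cells, with Cspg4 at 0 in members of Ctrl and none at 0 in the other libraries. The part of pericyte RNA in the contractile and Notch counts was not tested. Ly6a, which encodes Sca1, measured 13.0, 7.58, 15.8 and 74.4 CPM in members, and its level in endothelial cells went from 765 CPM in Sham_D40 to 1794 in Graft_D40. Ifi27l2a, an interferon-induced gene, measured 12.3, 8.48, 11.5 and 58.8 CPM in members and 51.8 and 236 CPM in endothelial cells at day 40. The part of endothelial RNA in these rises was not tested.

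**Figure D4:**
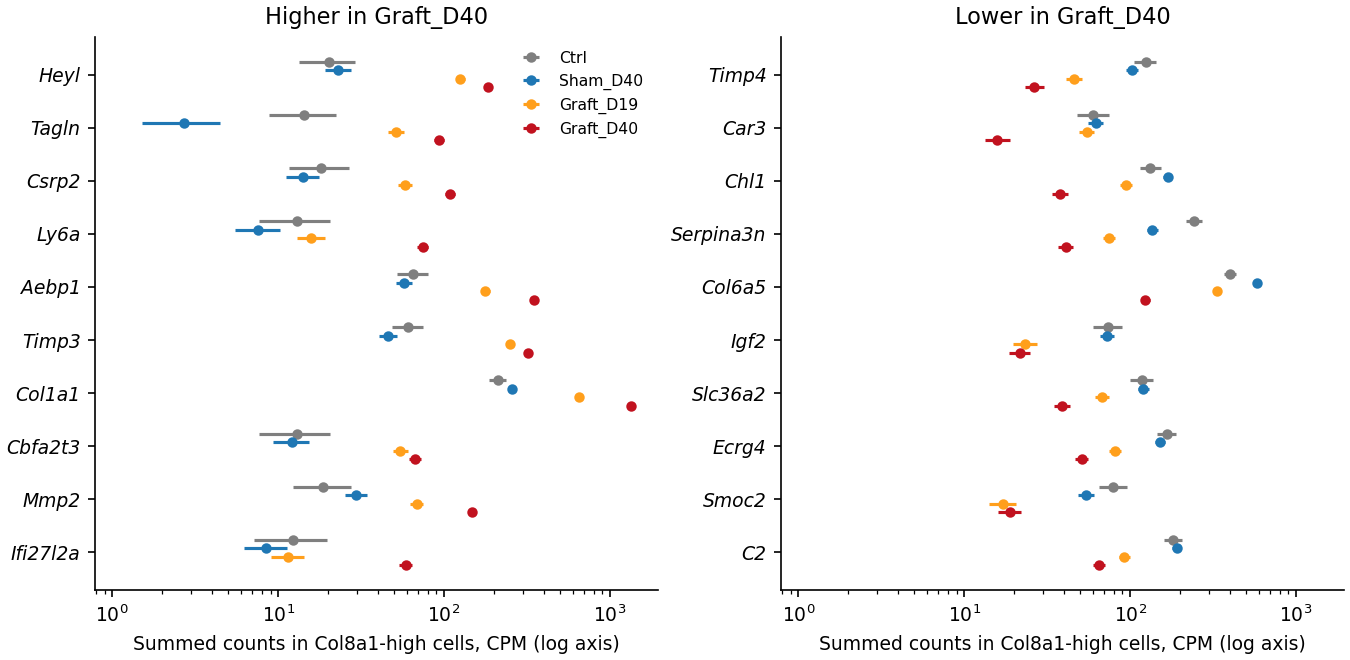
Summed counts in CPM on a log axis are plotted for the Col8a1-high cells of each library, with 95% Poisson intervals, for the 10 named genes that were higher in Graft_D40 than in both ungrafted libraries and the 10 that were lower. Graft_D19 lay between the ungrafted libraries and Graft_D40 for most genes, and beside the ungrafted ones for Ly6a, Ifi27l2a and Car3.

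Of the 10 genes named as lower in Graft_D40, Chl1, a neural adhesion molecule, measured 133 (Ctrl), 168 (Sham_D40), 94.6 (Graft_D19) and 37.9 (Graft_D40) CPM, and Igf2, a growth factor, 73.5, 72.5, 23.4 and 21.7 CPM. Chl1 was lowest in Graft_D40 and next lowest in Graft_D19, while Igf2 was as low at day 19 as at day 40. Serpina3n and complement C2 measured 242, 136, 74.7 and 40.9 CPM and 181, 191, 92.5 and 64.7 CPM, both lowest in Graft_D40. Car3, carbonic anhydrase 3, was lower in Graft_D40 alone, at 59.8, 61.9, 54.7 and 15.9 CPM. Its 10 top cells held 71.1%, 67.1%, 62.8% and 53.7% of the UMIs, and without these it measured 17.3, 20.4, 20.3 and 7.34 CPM. Timp4, Col6a5, Slc36a2, an amino acid transporter, Ecrg4 and the matricellular Smoc2 completed the group.

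TGF-beta pathway genes included 9 of 24 that were higher in members of Graft_D40 over Sham_D40 and 1 that was lower. The ligand Tgfb3 measured 25.2, 26.5, 41.3 and 63.7 CPM. The receptor genes Tgfbr1 and Tgfbr2, at 29.6, 38.4, 47.0 and 56.3 and 47.6, 62.4, 64.6 and 78.1 CPM, did not pass the call, and the co-receptor Tgfbr3 fell, at 444, 534, 388 and 307 CPM. Of the target genes, Pmepa1, a feedback inhibitor, measured 275 (Ctrl), 270.4 (Sham_D40), 564 (Graft_D19) and 886 (Graft_D40) CPM, a log2 ratio of 1.71 over the sham, and Skil, another inhibitor, 50.5, 47.6, 84.2 and 131 CPM. Each was at a like level in Ctrl and Sham_D40 and rose in Graft_D19 and again in Graft_D40. In the other gated cells 9 of 24 were higher and 3 lower, and Pmepa1 measured 212, 227, 357 and 558 CPM.

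Genes of sterol and fatty acid synthesis were higher in both grafts. In members 17 of 23 were higher in Graft_D40 over Sham_D40 and 0 lower, with a median log2 ratio of 0.92. Cyp51, an enzyme of cholesterol synthesis, measured 11.5 (Ctrl), 10.6 (Sham_D40), 52.6 (Graft_D19) and 38.0 (Graft_D40) CPM and Sqle, squalene epoxidase, 4.33, 3.43, 30.3 and 26.8 CPM. For both genes, the grafts stood above both ungrafted libraries and Graft_D19 was the highest. Scd1 and Acaca, of fatty acid synthesis, did not pass the call. In the other gated cells 15 of 23 were higher and 0 lower.

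Chemokine genes differed between the 2 day 40 libraries. In members 9 of 14 were higher in Graft_D40 and 0 lower, and in the other gated cells 2 of 12 were higher and 0 lower, a difference between the classes that was not tested. Much of this RNA lay in few cells. In Graft_D40 the 10 of 1003 members with most of each held 94.2% of Ccl5, 77.1% of Ccl7, 65.5% of Cxcl5, 60.1% of Cxcl1, 52.8% of Ccl2 and 46.9% of Cxcl9. Cxcl13 measured 26.9 CPM in Sham_D40 and 292 in Graft_D40, 10.9-fold (9.21 to 12.9), and was found in 4.58%, 6.61%, 5.59% and 11.2% of the members of Ctrl, Sham_D40, Graft_D19 and Graft_D40. Without the UMIs of its 10 top cells it measured 9.92 CPM in Sham_D40 and 118 in Graft_D40. Cxcl10, an interferon-induced chemokine, measured 21.6, 0.361, 1.96 and 65.1 CPM, but 10 cells held 91.4% of its UMIs in Graft_D40 and 1 cell held all 30 in Ctrl. Ctrl also held more Cxcl13, at 64.2 CPM, than Sham_D40, so with all cells counted the rise over Ctrl was the smaller one. Most of the Cxcl13 UMIs of Ctrl members lay in 10 cells, as given above, so this order rests on few cells. Il1rn, the interleukin-1 receptor antagonist, measured 149.9, 199, 240.5 and 461 CPM and was highest in Graft_D40. Of 32 interferon-response genes 13 were higher and 0 lower, with a median of 0.43. Irf7, a factor that interferon induces, measured 80.0, 54.5, 64.5 and 114 CPM and Ifit3, an antiviral effector, 45.4, 30.9, 38.6 and 71.4 CPM. Ctrl members exceeded those of Sham_D40 for both, and Graft_D40 was the highest.

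**Figure D5:**
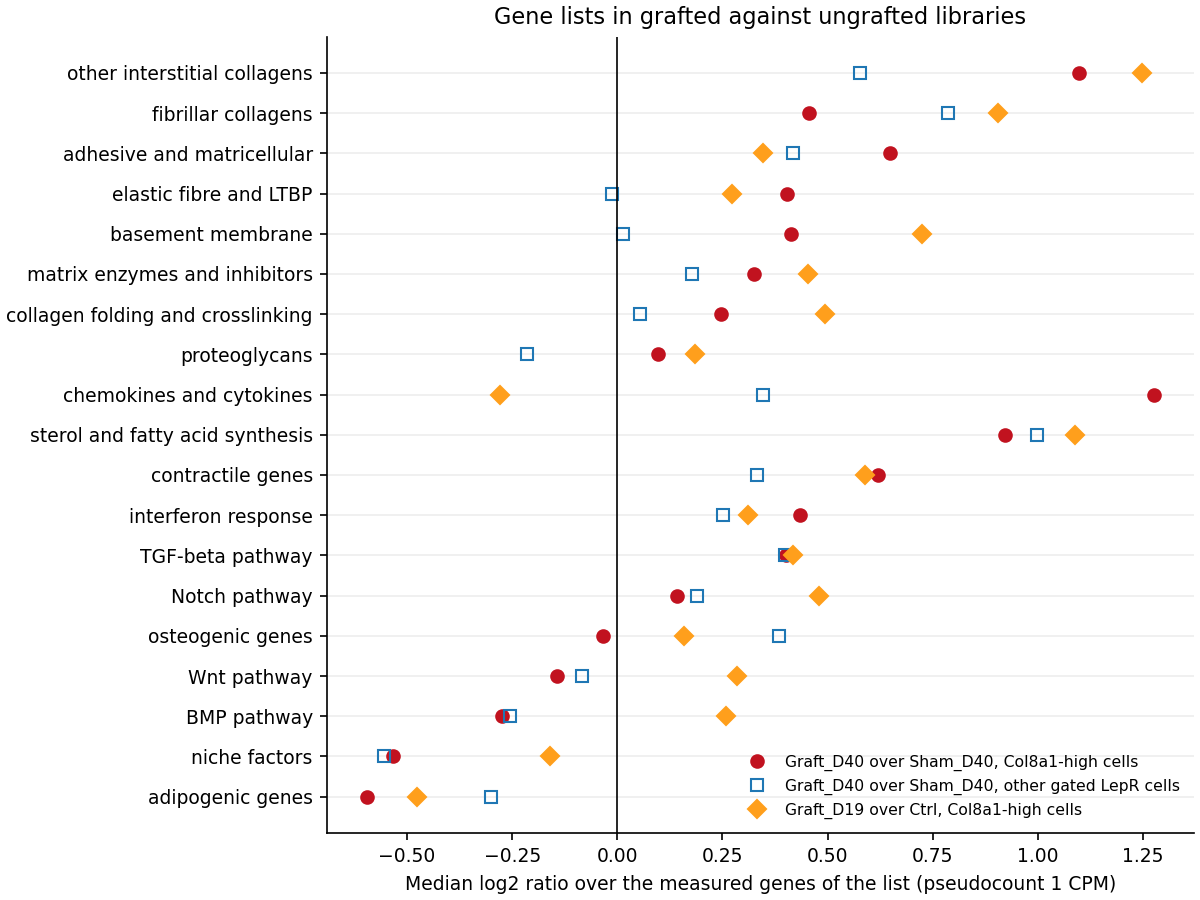
The median log2 ratio of the measured genes is plotted for 19 gene lists, for Graft_D40 over Sham_D40 in Col8a1-high cells (circles) and other gated LepR cells (squares) and for Graft_D19 over Ctrl in Col8a1-high cells (diamonds). Niche and adipogenic lists lie below 0 in all 3 comparisons and the sterol list lies near 1 in all 3. Chemokines lie at 1.28 in members at day 40 over Sham_D40 and at -0.28 at day 19 over Ctrl. Over Sham_D40, which is not plotted, the day 19 median was 0.47.

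Day 19 was compared with Ctrl, as no sham of that day was among the samples. In members 17.9% of 10505 genes were called higher and 6.87% lower, and the median over all genes was 0.20 on the log2 scale, or 0.03 with median-ratio size factors, so ratios here are to be read against that shift. Matrix genes counted 48 higher and 6 lower of 117, with a median of 0.49. Heyl stood at 6.23-fold (4.28 to 9.43), Cyp51 at 4.56-fold (2.77 to 8.07), Timp3 at 4.11-fold (3.30 to 5.18) and Cbfa2t3, a transcriptional corepressor, at 4.20-fold (2.62 to 7.17). These 4 genes were among those named as higher at day 19 than in both ungrafted libraries. Smoc2, Igf2, Timp4, Rnaset2a and Rnaset2b were the 5 that were lower, and the last pair are near-identical ribonuclease genes whose reads may be split between them. Of 16 niche factors 4 were lower and 1 higher, and Kitl did not pass the call, at 0.726 times (0.697 to 0.757) the Ctrl level. Immediate early genes, which cell dissociation can induce, were higher for 16 of 23, with a median of 1.19, and Fosb measured 28.8, 239, 336 and 153 CPM, lowest in Ctrl. Against Sham_D40 in place of Ctrl, 22 of 120 matrix genes were higher at day 19 and 7 lower, where 4.54% and 3.27% of all genes were. Against Ctrl in place of Sham_D40, 73 of 119 matrix genes were higher at day 40 and 7 lower, where 21.2% and 8.79% of all genes were.

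From day 19 to day 40 of the graft, 2.77% of 10567 genes were higher in members and 1.86% lower. Matrix genes counted 21 higher and 5 lower of 121. Fndc1 measured 41.9 CPM at day 19 and 139 at day 40, with 36.0 and 40.1 CPM in the ungrafted libraries. Chemokines counted 10 higher of 14 and 1 lower, and the 5 genes named as higher were Cxcl10, Cxcl13, Ifi27l2a, Ly6a and Bglap. Without the Bglap UMIs of the 1 cell with most of them, an alternative chosen after seeing the data, Bglap measured 66.3 CPM in Graft_D40 against 47.6 with all cells in Graft_D19, under 1.5-fold. Of the 5 named as lower, S100a9, Ngp and Camp are neutrophil genes: S100a9 measured 1165, 8.30, 522 and 4.31 CPM, and without the single cell of Graft_D19 that held most haematopoietic RNA, and the like cells of other libraries, its log2 ratio was -1.72 in place of -6.62. Car3 and Col6a5 completed the 5. This comparison shares Graft_D40 with the first and Graft_D19 with the one before it, so the 3 are not independent.

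The LepR stroma as a whole of Graft_D40 differed from that of Sham_D40 both in its share of Col8a1-high cells and within the classes. Members supplied 76.1% of the UMIs of gated LepR cells in Graft_D40. Over all gated cells Kitl measured 2660.1 CPM in Sham_D40 and 1109 in Graft_D40, and the Sham_D40 classes combined at the Graft_D40 proportions gave 2625. Heyl measured 27.6 and 165 CPM, with 24.6 at those proportions. For Fbn1 the 3 values were 705, 1218 and 765 CPM, and for Tnfsf11 46.4, 129 and 62.9 CPM. For Tnc they were 2364, 1596 and 3002 CPM. The 5 genes were picked from 16 computed, and the part of the changed proportions was not tested.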

How the data were processed

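The authors deposited unnormalised UMI counts in 4 matrices. Cell Ranger 5.0.0 made them per the file headers, while Cell Ranger 3.1.0 and the build mm10 are named per the submitters' processing notes. A barcode passed with at least 500 genes and at least 1000 UMIs, of which no more than 10% were mitochondrial. Antibody features were left out of totals. Within each library, counts of a class were added up and scaled to CPM with exact Poisson intervals. Ratios carry exact conditional binomial intervals, and log2 ratios a pseudocount of 1 CPM. Genes with a mean of at least 5 CPM counted as measured, and were called at 1.5-fold with its interval off 1. Endothelial cells had 2 or more Cdh5 UMIs and 1 or more Pecam1 UMIs. Scrublet (scanpy 1.11.5, 6% expected) called doublets, whose removal was an alternative. The calculation was tested on simulated data.

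The members and the gene lists were chosen with earlier results of these data known. Genes named are, in members over other gated cells, the 12 each way with the largest smallest log2 ratio over the 4 libraries; the 10 each way at day 40 and 5 each way at day 19 that differ from both ungrafted libraries; the 5 each way between the grafts, all at 50 CPM or more; the 6 markers; and 2 to 4 genes per list from 20 CPM up, with those needed to describe a pathway. Mitochondrial, ribosomal protein, haemoglobin, immunoglobulin, sex-linked, unnamed and haematopoietic-marker genes were left out. The pathway genes, with Hey1, Smad6, Sfrp1 and Lama1, were picked with their values in view. Of the day 19 genes, 1 is not reported here. Alternatives changed the thresholds, depth, cell weights, scaling, pseudocount, minimum CPM, doublets, comparator and libraries. Python 3.11.15, numpy 2.4.6, scipy 1.17.1, pandas 2.3.3 and matplotlib 3.10.9 were used. Gene positions came from GENCODE vM21, in which 99.6% of 32285 genes were found. Overlapping genes cannot be told apart where their 3′ ends coincide.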

Additional observations from a re-analysis of the deposited data

Results flagged for a closer look

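In all, 2 antibody-derived features were present in the day 40 libraries and were used in no comparison. In Sham_D40 the members held 263810 UMIs of the feature B0301 and 5452 of B0302, with medians of 377.5 and 7 per cell. In Graft_D40 they held 1035 UMIs of B0301 and 852070 of B0302, with medians of 1 and 677 per cell. Each library was thus dominated by 1 feature, and the other gated LepR cells and the endothelial cells of the same library showed the same dominant feature. These counts stood out as a signal in data that the comparisons do not use. The labels do not say what the 2 features mark.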

How the results depend on the processing

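With 1 library per group, no alternative measures the spread between animals, and no paired analysis was possible because each group held 1 sample. Depth limits Ctrl more than the other libraries, since 3 counts equal 2.16 CPM in its members against 0.350 in Graft_D40. No named gene value changed direction. Medians of lists were not followed in this way. That of chemokines in members of Graft_D19 was -0.28 over Ctrl and 0.47 over Sham_D40. Of the alternatives for shares and gene counts, 22 moved a value and 92 did not, and the 24 chosen after seeing the data moved none. The shares in Ctrl, Sham_D40, Graft_D19 and Graft_D40 became 6.67%, 9.50%, 19.2% and 53.3% at 10 Col8a1 UMIs per 10000, and 30.8%, 39.4%, 52.2% and 77.8% in cells thinned to 2000 UMIs. At 2 or more Col8a1 UMIs the Ctrl share was 18.3%. With a minimum of 50 CPM, 16 genes were higher and 8 lower in members in all 4 libraries, 5 matrix genes were lower in Graft_D40 than in Sham_D40, and 12 were higher and 3 lower than in Graft_D19, as fewer genes were measured. At 10 Col8a1 UMIs per 10000, 14 genes were lower in all 4 libraries, and 14 matrix genes were lower over Sham_D40 and 12 in Graft_D19 over Ctrl. With Ctrl as comparator 73 matrix genes were higher in Graft_D40, with Sham_D40 as comparator 22 were higher in Graft_D19, and median-ratio size factors gave 13 lower in Graft_D19 over Ctrl. Leaving out each library in turn gave 44 to 58 genes higher in the remaining 3 libraries and 29 to 55 lower, the most without Ctrl, as fewer libraries had to pass. Beyond those stated, the cause was not tested. Of 824 alternative values of named genes, 40 planned and 5 added moved.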
